A study of Mus musculus with 12 samples.

Results

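The 10 genes described here encode the transcription factors, effectors and eIF2 regulators of the ATF4 and CHOP stress pathway: Atf4, Atf3, Atf5, Ddit3 (the gene of CHOP), Trib3, Chac1, Ddit4, Sesn2, Ppp1r15a and Eif2ak3. They were chosen by gene symbol, with earlier results of these data known, so the share of them called is a description. All 10 were found among the 15663 genes of the 4 deposited tables. RNA was sequenced from mouse hearts at embryonic day 9.5 in 4 genotype groups of 3 libraries each, all carrying a Cre driver labelled NkxCre and at least 1 floxed Asb2 allele, with the strain given as C57/BL 6. The double mutant was labelled NkxCre.Asb2fl/fl.Flnafl/fl. The Asb2 cKO (conditional knockout) was labelled NkxCre.Asb2fl/fl. The Flna-labelled group was labelled NkxCre.Asb2fl/+.Flnafl/fl, and the control NkxCre.Asb2fl/+. The control therefore carried the Cre driver and 1 floxed Asb2 allele, and no group lacked the Cre. Gene coordinates are those of GENCODE M21 on GRCm38. The labels do not say which cells the driver marks, or whether embryos were pooled.

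As background, several kinases phosphorylate the translation factor eIF2 under stress, among them PERK, the product of Eif2ak3, which senses unfolded protein in the endoplasmic reticulum (ER). General translation then slows while the mRNA of Atf4 is translated more, and ATF4 switches on CHOP, ATF3, TRIB3 and genes of amino acid supply. The pathway is known in heart muscle cells as a response to ER, mitochondrial and nutrient stress. Asb2 encodes the substrate-binding subunit of a ubiquitin ligase that marks filamins for degradation, and Flna encodes filamin A, an actin crosslinker.

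Levels are given in CPM, the authors' read counts scaled to library size. Between 25954539 and 42473118 reads fell in the listed genes of a library, which puts 1 read at 0.0239 to 0.038 CPM. Defining cardiomyocyte markers were present in every library, with Tnnt2 at 1635 to 3768 CPM over the 12 libraries. Asb2 itself stood at 121 to 153 CPM in the double mutant, 77.8 to 163 CPM in Asb2 cKO libraries, 113 to 197 CPM in the Flna-labelled group and 183 to 289 CPM in the control. It fell in the double mutant and the Asb2 cKO against the control (log2 fold changes -0.78 and -0.99, limma adjusted p = 0.00724 and 0.0248). The Flna-labelled group, labelled Asb2fl/+, overlapped both of them, at -0.68 against the control (limma adjusted p = 0.334) and with the double mutant at -0.10 against it (limma adjusted p = 0.737). Flna stood at 1012 to 1146 CPM in the double mutant, 725 to 1032 CPM in Asb2 cKO libraries, 958 to 1011 CPM in the Flna-labelled group and 490.3 to 721 CPM in the control. It rose in the double mutant (0.86, limma adjusted p = 0.00255) and in the Asb2 cKO (0.58, limma adjusted p = 0.0464), and was 0.76 in the Flna-labelled group (limma adjusted p = 0.147), all against the control. A gene-level count can include exons outside a deleted part and so does not test these labels. The X-linked Xist was at or above 9.34 CPM in control libraries 2 and 3, Asb2 cKO libraries 1 and 3 and double mutant library 3, and at or under 0.823 CPM in the other libraries. Of these 5 libraries, all but control library 2 also held transcripts of Y-linked genes. Those with low Xist were all 3 Flna-labelled libraries, double mutant libraries 1 and 2, control library 1 and Asb2 cKO library 2. Y-linked genes summed to 196 to 218 CPM in the double mutant, 52.6 to 212 CPM in the Asb2 cKO, 170 to 172 CPM in the Flna-labelled group and 0 to 162 CPM in the control. The Flnafl/fl label and the sex of the embryos therefore cannot be fully told apart. Whether replicate libraries came from separate embryos is not stated, so each p-value sets a difference against the spread between libraries only.

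Most of the 10 genes were higher in both groups labelled Asb2fl/fl than in the control, and none fell. Against the control, 9 of 10 rose in the double mutant, all but Eif2ak3, with a median log2 fold change of 2.29. In the Asb2 cKO 7 of 10 rose, all but Atf5, Ppp1r15a and Eif2ak3, with a median of 1.97. Both counts include Chac1, which passed the 1 CPM filter only through the groups labelled Asb2fl/fl. Calls are from limma on log2(CPM + 0.5) at a Benjamini-Hochberg adjusted p under 0.05 over all genes tested. Over all genes, 32.3% of 14015 were called in the double mutant against the control, 15.6% as higher, and 21.6% of 14034 in the Asb2 cKO against the control, 10.7% as higher. The median log2 fold change over all genes was 0.01 in the double mutant and -0.01 in the Asb2 cKO. Lack of overlap between groups, given below for single genes, was also common over all genes. The double mutant did not overlap with the control for 47.8% of them (23.6% higher), and the Asb2 cKO for 41.4% (20% higher). Against the Flna-labelled group these shares were 47.5% (22.4% higher) and 40% (18.5% higher). These hearts are mixtures of cells, so more cells of a type and more RNA per cell cannot be told apart.

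**Figure D1:**
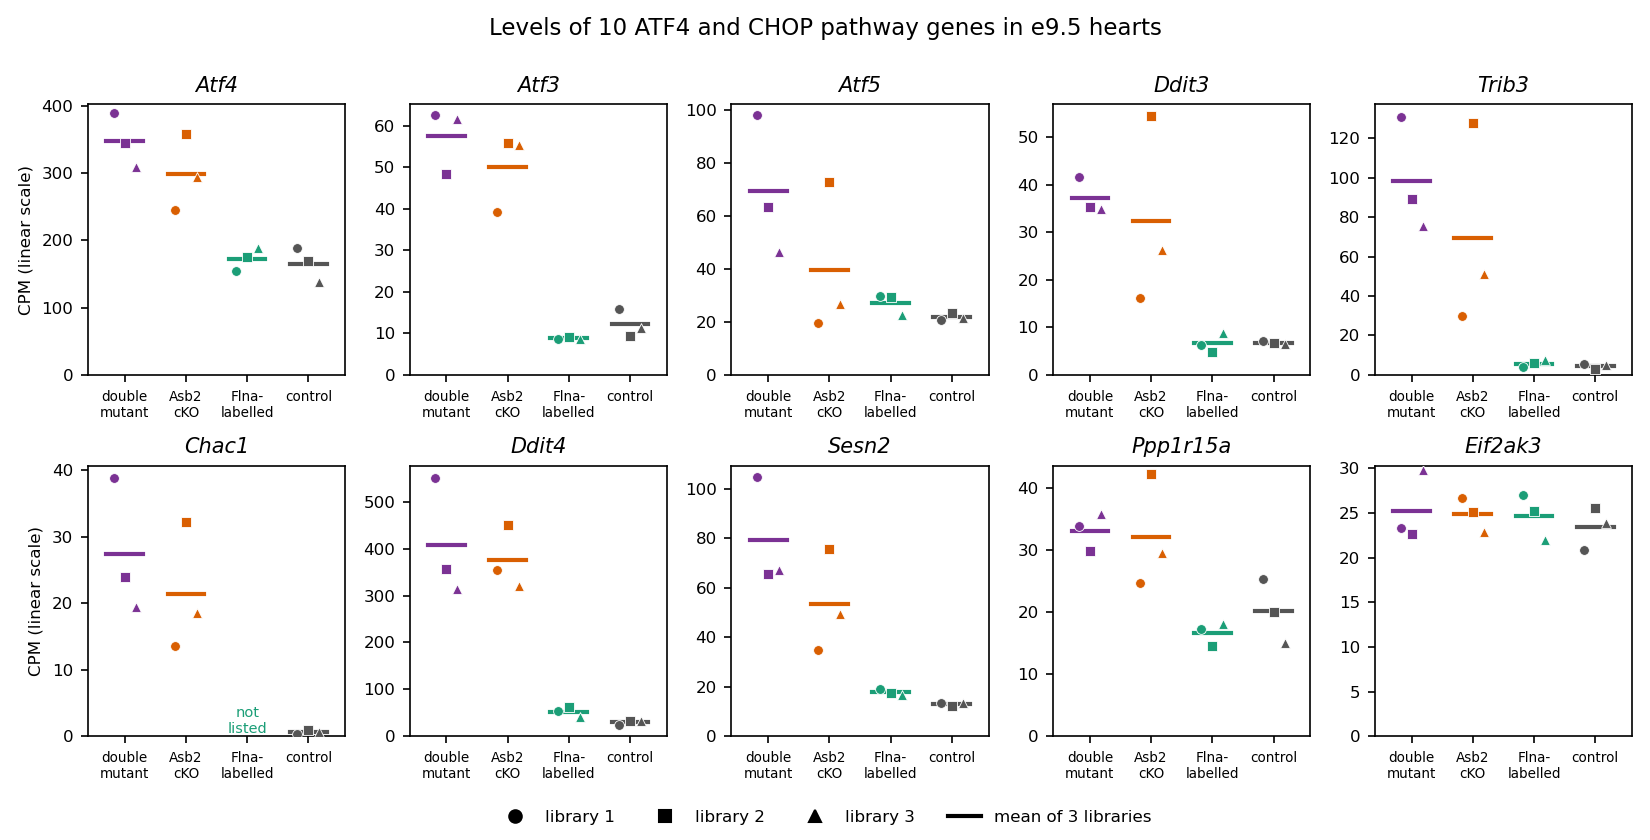
Level of each of the 10 genes in CPM (vertical axes, linear from 0) in each library of the double mutant, Asb2 cKO, Flna-labelled and control groups; symbols mark the library number and bars the mean of 3 libraries. For Ddit4, all 6 double mutant and Asb2 cKO libraries lie at or above 315 CPM and all 6 Flna-labelled and control libraries at or under 61.8 CPM, while Eif2ak3 lies between 20.8 and 29.8 CPM in all 12.

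Among the transcription factors, Atf4 (ENSMUSG00000042406, chr15:80255184-80257541, plus strand), the eIF2-controlled activator of the response, had 390.0, 345 and 309.6 CPM in double mutant libraries 1, 2 and 3 and 245, 358 and 295 CPM in Asb2 cKO libraries 1, 2 and 3. It had 154, 175 and 189 CPM in Flna-labelled libraries and 188, 170.0 and 138 CPM in control libraries. All 6 libraries labelled Asb2fl/fl lay above all 6 others. The log2 fold change was 1.08 (SE 0.14, limma adjusted p = 0.000527) in the double mutant and 0.85 (SE 0.17, limma adjusted p = 0.00761) in the Asb2 cKO, each against the control.

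Atf3 (ENSMUSG00000026628, chr1:191170296-191218039, minus strand), a stress-induced factor that often represses, had 62.5, 48.3 and 61.7 CPM in the double mutant, 39.2, 55.8 and 55.5 CPM in Asb2 cKO libraries, 8.63, 9.04 and 8.74 CPM in the Flna-labelled group and 15.9, 9.49 and 11.3 CPM in the control. Its mean was 4.71 times the control mean in the double mutant and 4.11 times the control mean in the Asb2 cKO. The corresponding log2 fold changes were 2.21 (SE 0.19, limma adjusted p = 5.55e-05) and 2.01 (SE 0.21, limma adjusted p = 0.000292). The Flna-labelled libraries all lay just under the lowest control library, a difference of -0.42 on the log2 scale that did not pass the test (limma adjusted p = 0.402).

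Ddit3 (ENSMUSG00000025408, chr10:127290774-127296288, plus strand) encodes CHOP, which drives later, death-promoting parts of the response. It had 41.6, 35.2 and 35.0 CPM in the double mutant and 16.2, 54.5 and 26.4 CPM in Asb2 cKO libraries. It had 6.30, 4.74 and 8.89 CPM in the Flna-labelled group and 7.08, 6.67 and 6.61 CPM in the control. The lowest Asb2 cKO library thus stood above every Flna-labelled and control library, but the 3 Asb2 cKO libraries spanned a 3.36-fold range. Ddit3 rose by 2.37 on the log2 scale in the double mutant (SE 0.14, limma adjusted p = 5.51e-06) and by 2.00 in the Asb2 cKO (SE 0.36, limma adjusted p = 0.0057). In the annotation 68 of its 1713 exonic bases overlap Mars on the opposite strand, which averaged 148 CPM, and 105 overlap another gene model of the same name. The strand used in counting is not given in the sources used here, so a part of these reads may belong to either gene.

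Atf5 (ENSMUSG00000038539, chr7:44812256-44816658, minus strand), a relative of ATF4 that is likewise controlled at translation, varied widely between libraries of 1 group. It had 98.3, 63.4 and 46.6 CPM in the double mutant, 19.6, 72.8 and 26.7 CPM in Asb2 cKO libraries, 29.8, 29.3 and 22.6 CPM in the Flna-labelled group and 20.8, 23.6 and 21.6 CPM in the control. Only Asb2 cKO library 2 was in the range of the double mutant, and library 1 was under every control library. Atf5 rose in the double mutant (a log2 fold change of 1.57, SE 0.23, limma adjusted p = 0.00151). In the Asb2 cKO the log2 fold change was 0.61 with a 95% interval of -0.32 to 1.54 (limma adjusted p = 0.310).

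Of the effector genes, Trib3, Chac1 and Ddit4 had larger fold changes than any of the factors. Trib3 (ENSMUSG00000032715, chr2:152337422-152344032, minus strand) encodes a pseudokinase that binds ATF4 and CHOP and restrains both. It had 131, 89.1 and 75.3 CPM in the double mutant, 29.9, 128 and 51.0 CPM in Asb2 cKO libraries, 3.85, 5.91 and 7.57 CPM in the Flna-labelled group and 5.40, 2.96 and 5.13 CPM in the control. No double mutant or Asb2 cKO library overlapped the other 2 groups. The mean was 21.9 times the control mean in the double mutant (a log2 fold change of 4.31, SE 0.25, limma adjusted p = 8.74e-06) and 15.5 times in the Asb2 cKO (a log2 fold change of 3.59, SE 0.47, limma adjusted p = 0.00214).

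Chac1 (ENSMUSG00000027313, chr2:119351229-119354381, plus strand), which encodes an enzyme that breaks down glutathione, was low in the control, with 12, 34 and 17 reads or 0.395, 0.933 and 0.582 CPM. It had 38.8, 23.9 and 19.5 CPM in the double mutant and 13.7, 32.2 and 18.5 CPM in Asb2 cKO libraries. The table of the Flna-labelled group does not list it, so it has no value there and enters no comparison with that group. Every library labelled Asb2fl/fl stood above every control library. Its log2 fold change of 4.59 (SE 0.29, limma adjusted p = 8.33e-06) in the double mutant and 4.21 (SE 0.34, limma adjusted p = 8.36e-05) in the Asb2 cKO depends on the pseudocount because the control is so low. It ranged over the alternatives from 3.43 to 5.42 in the double mutant and from 3.08 to 5.08 in the Asb2 cKO. The control mean of 0.637 CPM was under the 1 CPM filter, so Chac1 was tested only because the other group was high. It was called in all 17 alternatives that gave it a value, among them the one without that filter.

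Ddit4 and Sesn2 encode inhibitors of the growth kinase complex mTORC1, REDD1 and sestrin 2, and Ddit4 is also a known target of hypoxia-inducible factor (HIF). Ddit4 (ENSMUSG00000020108, chr10:59949669-59951834, minus strand) had 550.5, 357 and 315 CPM in the double mutant, 355, 450.4 and 320.4 CPM in Asb2 cKO libraries, 53.8, 61.8 and 41.8 CPM in the Flna-labelled group and 24.9, 33.6 and 33.2 CPM in the control. The groups labelled Asb2fl/fl overlapped each other and no other group, and the Flna-labelled libraries all lay above the control libraries. Ddit4 rose by 3.68 on the log2 scale in the double mutant (SE 0.21, limma adjusted p = 9.02e-06) and by 3.59 in the Asb2 cKO (SE 0.17, limma adjusted p = 2.42e-06). Sesn2 (ENSMUSG00000028893, chr4:132492032-132510501, minus strand) had 105, 65.8 and 67.1 CPM in the double mutant, 35.1, 75.9 and 49.3 CPM in Asb2 cKO libraries, 19.3, 17.5 and 16.7 CPM in the Flna-labelled group and 13.4, 12.2 and 13.3 CPM in the control. Its 4 groups stood in that order by mean, with overlap between the first pair alone. Sesn2 rose by 2.53 on the log2 scale in the double mutant (SE 0.18, limma adjusted p = 1.54e-05) and by 1.93 in the Asb2 cKO (SE 0.24, limma adjusted p = 0.000632).

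Promoter windows are shown for 5 of the genes that rose in the double mutant, as examples of the motifs searched. RefSeq windows of 300 bases on GRCm38.p6, 250 before and 50 after the annotated start, were available for all 10 genes, with 2 windows for Atf5. The C/EBP-ATF response element, searched as TGATGNAA on both strands, was found in the windows of 3 genes, Atf3, Trib3 and Chac1, and in 3.97% of all 32851 windows. The Atf3 window lies on the minus strand at chr1:191183284-191183583, Trib3 on the minus strand at chr2:152344011-152344310 and Chac1 on the plus strand at chr2:119350992-119351291. They read 5′ to 3′ along the gene, with the match in capitals:
Atf3: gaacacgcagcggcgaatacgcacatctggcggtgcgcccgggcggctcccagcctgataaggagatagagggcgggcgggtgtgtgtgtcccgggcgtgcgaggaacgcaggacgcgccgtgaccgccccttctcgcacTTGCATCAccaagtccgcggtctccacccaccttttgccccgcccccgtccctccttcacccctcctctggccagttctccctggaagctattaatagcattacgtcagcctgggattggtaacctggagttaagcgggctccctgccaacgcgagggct
Trib3: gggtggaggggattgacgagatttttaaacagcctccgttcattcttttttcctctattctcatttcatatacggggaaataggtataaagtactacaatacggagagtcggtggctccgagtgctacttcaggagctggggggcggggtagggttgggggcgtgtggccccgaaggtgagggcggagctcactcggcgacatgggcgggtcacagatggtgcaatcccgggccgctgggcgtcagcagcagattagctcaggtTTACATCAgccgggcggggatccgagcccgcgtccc
Chac1: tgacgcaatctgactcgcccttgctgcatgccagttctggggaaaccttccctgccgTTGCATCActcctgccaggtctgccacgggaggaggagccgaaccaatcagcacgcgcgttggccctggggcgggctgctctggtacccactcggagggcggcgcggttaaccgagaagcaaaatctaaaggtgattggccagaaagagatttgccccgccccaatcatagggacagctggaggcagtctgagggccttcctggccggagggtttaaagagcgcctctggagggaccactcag
All 3 matches stand on the strand opposite to the gene, so the capitals show the reverse complement of the motif. Measured from the start site, the match begins at position -110 in Atf3, 15 in Trib3 and -193 in Chac1. The Atf3 window lies inside the gene coordinates given above, and no window covered their upstream end at 191218039. The cyclic AMP response element, TGACGTCA, was found in 1 of the 10 genes, Ppp1r15a, and in 1.79% of all windows. The hypoxia response element core, ACGTG, was found in Ddit3, Ddit4 and Ppp1r15a and in 19.6% of all windows. The Ddit4 window, with the 1 match to ACGTG in capitals, lies on the minus strand at chr10:59951721-59952020, and the Ppp1r15a window, with TGACGTCA in capitals, on the minus strand at chr7:45526219-45526518:
Ddit4: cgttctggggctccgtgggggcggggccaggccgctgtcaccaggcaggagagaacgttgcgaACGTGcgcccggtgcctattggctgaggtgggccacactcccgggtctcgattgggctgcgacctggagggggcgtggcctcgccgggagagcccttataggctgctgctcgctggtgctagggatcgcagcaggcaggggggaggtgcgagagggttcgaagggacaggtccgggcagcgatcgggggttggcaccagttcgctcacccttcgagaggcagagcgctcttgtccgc
Ppp1r15a: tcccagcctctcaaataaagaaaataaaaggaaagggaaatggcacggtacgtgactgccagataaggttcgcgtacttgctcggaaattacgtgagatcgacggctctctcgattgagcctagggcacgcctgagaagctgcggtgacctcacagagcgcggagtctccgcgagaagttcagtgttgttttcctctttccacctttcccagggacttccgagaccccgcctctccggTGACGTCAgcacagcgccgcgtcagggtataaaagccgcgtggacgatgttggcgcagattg
The ER stress response element was searched only by its end, CCACG, which was found in 6 of the 10 genes (Atf4, Atf5, Chac1, Ddit4, Sesn2 and Ppp1r15a) and in 32.8% of all windows. In Ddit4, the ACGTG and CCACG matches do not overlap. Such a match describes letters in a window and does not show binding.

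The pair of eIF2 regulators had the smallest fold changes of the 10 genes in the double mutant. Ppp1r15a (ENSMUSG00000040435, chr7:45522916-45526268, minus strand) encodes GADD34, which recruits a phosphatase to eIF2 and so ends the response. It had 33.9, 29.8 and 35.8 CPM in the double mutant, 24.7, 42.3 and 29.6 CPM in Asb2 cKO libraries, 17.3, 14.6 and 18.1 CPM in the Flna-labelled group and 25.4, 20.1 and 15.0 CPM in the control. The double mutant lay above the control without overlap, while Asb2 cKO library 1 lay under control library 1. Ppp1r15a rose by 0.73 on the log2 scale in the double mutant (SE 0.18, limma adjusted p = 0.0138). With Xist as a covariate in the fit of all 12 libraries that value was 0.48 and did not pass (limma adjusted p = 0.0929). In the Asb2 cKO the difference of 0.66 (SE 0.23) did not pass (limma adjusted p = 0.0666), but it passed in 5 of 19 alternatives, and the false discovery rate in the authors' deposited table is 0.0155.

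Eif2ak3 (ENSMUSG00000031668, chr6:70844515-70905245, plus strand), the gene of the kinase PERK, had 23.3, 22.6 and 29.8 CPM in the double mutant, 26.7, 25.1 and 22.8 CPM in Asb2 cKO libraries, 27.0, 25.2 and 21.9 CPM in the Flna-labelled group and 20.8, 25.6 and 23.9 CPM in the control. All 4 groups overlapped. The 95% interval of the log2 fold change was -0.23 to 0.44 in the double mutant (limma adjusted p = 0.640) and -0.25 to 0.43 in the Asb2 cKO (limma adjusted p = 0.704). An mRNA level says nothing of the phosphorylation by which the kinase acts.

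**Figure D2:**
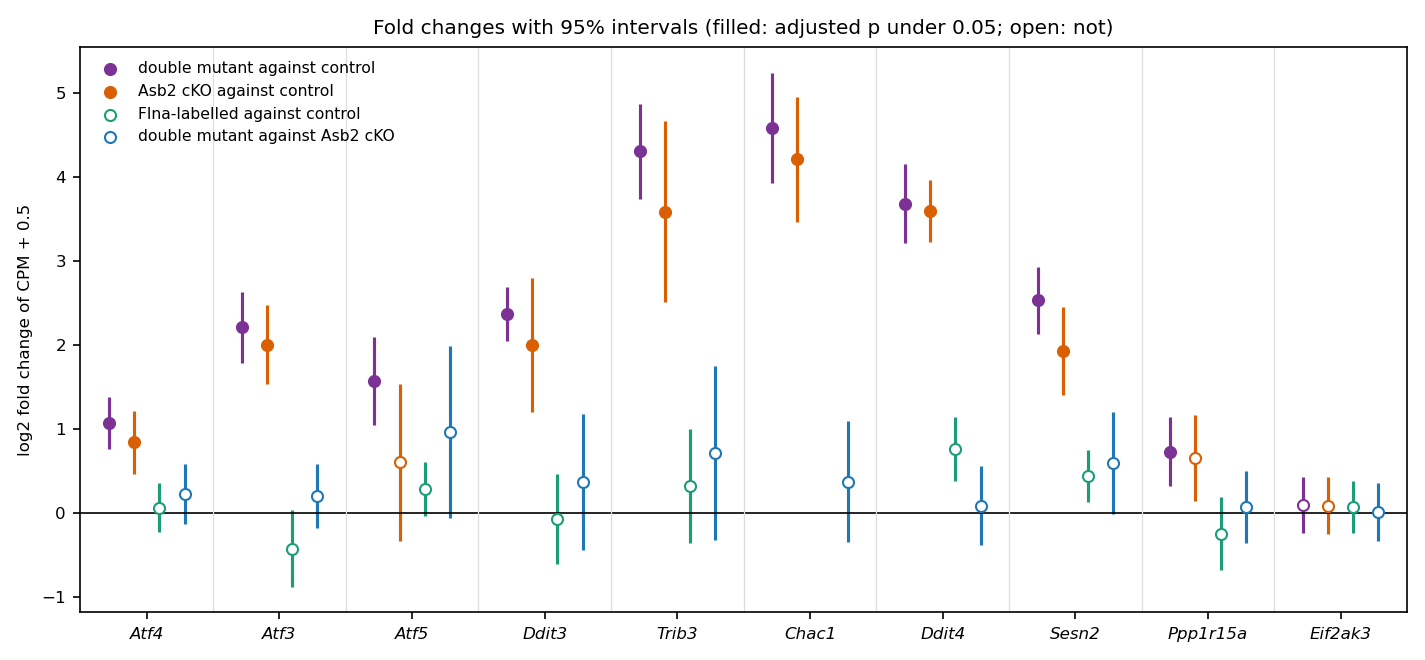
Log2 fold change of CPM + 0.5 (vertical axis) of each gene in the double mutant, the Asb2 cKO and the Flna-labelled group against the control, and in the double mutant against the Asb2 cKO; lines are 95% intervals and filled points have a limma adjusted p under 0.05. Values against the control reach 4.59 for Chac1 in the double mutant, and all points of the double mutant against the Asb2 cKO are open.

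Per kilobase of the deposited gene length, Ddit4 and Atf4 were the most abundant of the 10 in the double mutant, with mean levels of 242 and 202 CPM per kilobase, and in the Asb2 cKO, with 223 and 174 CPM per kilobase. In the control Atf4 led with a mean level of 96.2 CPM per kilobase, followed by Ddit4 with 18.2 CPM per kilobase, and Trib3 and Chac1 were the lowest with 2.12 and 0.390 CPM per kilobase. Trib3 was the third in both groups labelled Asb2fl/fl, at a mean level of 46.4 CPM per kilobase in the double mutant and 32.8 CPM per kilobase in the Asb2 cKO. Eif2ak3 was the lowest there, at 4.30 and 4.23 CPM per kilobase in the same groups.

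Libraries of the Asb2 cKO differed from each other in a shared way. Library 2 was the highest of the 3 for 9 of the 10 genes, all but Eif2ak3, and library 1 the lowest for 8. The ratio of library 2 to library 1 was 4.27 for Trib3, 3.71 for Atf5, 3.36 for Ddit3, 2.36 for Chac1 and 2.16 for Sesn2, against 1.27 for Ddit4, 1.42 for Atf3 and 1.46 for Atf4. In the double mutant library 1 was the highest for 8 genes and the ratio of library 1 to library 3 was at most 2.11, for Atf5. Asb2 cKO library 2 also had the highest Asb2 level of its group, 163 CPM, and Xist at 0.380 CPM, against 571 and 377 CPM in libraries 1 and 3. Cardiomyocyte markers summed to 27001, 45658 and 43635 CPM in libraries 1, 2 and 3, and endocardial and endothelial markers to 1009, 1509 and 1111 CPM. Pharyngeal markers were the lowest in library 2, at 651, 458 and 597 CPM. The median log2 difference of HIF targets from the control mean was 1.51, 2.15 and 1.58. The part of these in the spread was not tested. Leaving out Asb2 cKO library 2 ended no call of these genes against the control, nor did leaving out any other library.

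**Figure D3:**
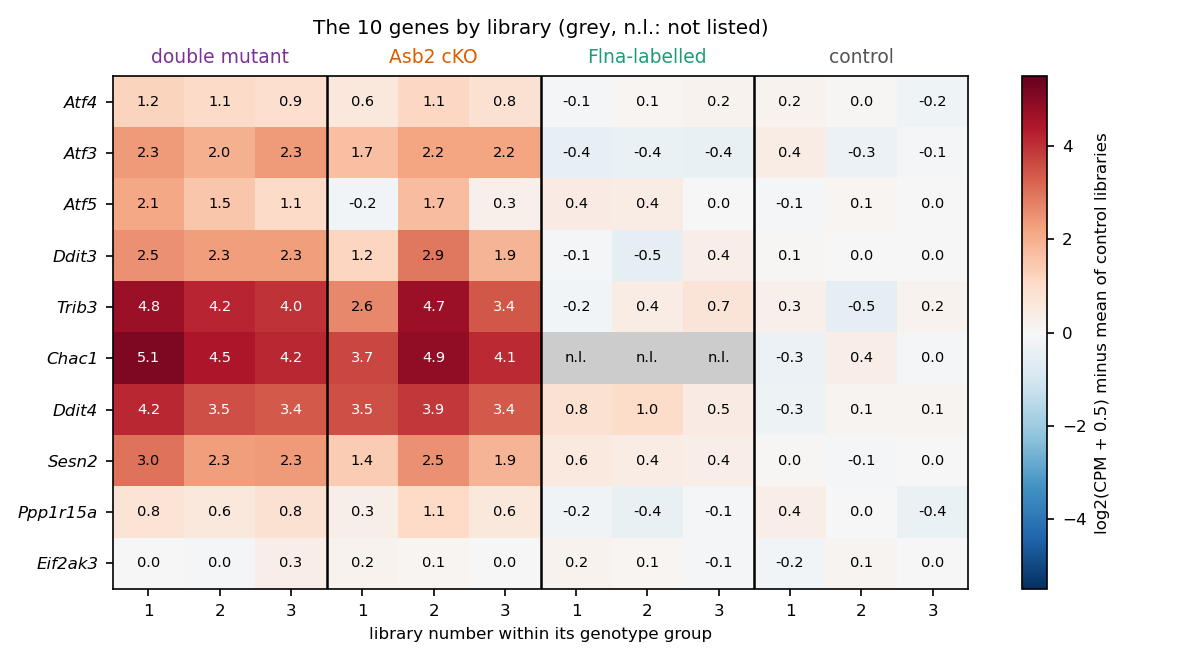
Difference of log2(CPM + 0.5) from the mean of the control libraries for each gene (rows) in each of the 12 libraries (columns, by group and library number); red is higher, blue lower and grey not listed. Within the Asb2 cKO, library 2 is the highest for 9 of 10 genes, and Eif2ak3 stays near 0 throughout.

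The double mutant against the Asb2 cKO asks how levels differ with the Flnafl/fl label when Asb2 is floxed on both alleles. The label cannot be fully told apart here from the differing levels of Xist and Y-linked genes. The double mutant had the higher mean for all 10 genes, with a median log2 difference of 0.30, but every gene overlapped between these groups, as did all but 7.88% of the genes tested. None passed with limma, none had an unadjusted p under 0.05, and edgeR's quasi-likelihood test and DESeq2 on the recovered reads also called 0 of 10. Over all genes 3 of 14037, or 0.0214%, were called by limma. The 95% intervals of the difference were -0.38 to 0.56 for Ddit4, -0.17 to 0.58 for Atf3 and -0.13 to 0.59 for Atf4. They were wider for Atf5, at -0.06 to 1.99, for Trib3, at -0.31 to 1.75, and for Sesn2, at -0.01 to 1.21, so a difference of the size of those means cannot be told from none.

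The Flna-labelled group against the control asks the same with 1 floxed Asb2 allele, under the same limit from Xist and Y-linked genes. Of the 9 genes listed, 0 passed with limma, against 0.072% of 13891 over all genes. Ddit4 and Sesn2 had an unadjusted p under 0.05, of 0.00139 and 0.00997, and did not overlap with the control. Ddit4 differed by 0.76 on the log2 scale (SE 0.17, limma adjusted p = 0.254), a mean 1.72 times that of the control, and Sesn2 by 0.44 (SE 0.14, limma adjusted p = 0.301), a mean 1.38 times that of the control. Groups did not overlap in either direction for 18% of all genes tested. DESeq2 called 1 of 9, Ddit4, with a log2 fold change of 0.78 (adjusted p = 0.00624), edgeR called 0, and limma called Ddit4 when Flna-labelled library 3 was left out (0.92, adjusted p = 0.0443). The authors' deposited table gives Ddit4 a false discovery rate of 0.0408 in this comparison. Of the cell type markers, 4 of 12 primitive erythroid markers fell (33.3%) and 1 of 10 liver bud and yolk sac markers rose (10%). Over the alternatives 0 to 10 erythroid markers fell. Of 15 cardiomyocyte markers 0 were called, with a median log2 fold change of -0.53. The part of these cells in the levels of the 10 genes was not tested.

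Set against the Flna-labelled group, 8 of 9 genes rose in the double mutant, all but Eif2ak3, and 7 of 9 rose in the Asb2 cKO, all but Atf5 and Eif2ak3. Over all genes 31.5% of 13954 in the double mutant and 15.7% of 13996 in the Asb2 cKO were called. Cell type markers also differed in these comparisons. In the double mutant 5 of 15 cardiomyocyte and 6 of 10 endocardial and endothelial markers rose, while 11 of 12 primitive erythroid and 7 of 10 liver bud and yolk sac markers fell. In the Asb2 cKO 3 of 10 endocardial and endothelial markers rose, while 11 of 12 erythroid and 2 of 10 liver bud and yolk sac markers fell. Of 7 epicardial markers 1 rose and 2 fell in each (42.9%). Pharyngeal markers rose for 1 of 10 in the double mutant and 2 of 10 in the Asb2 cKO. The cardiomyocyte share in the double mutant (33.3%) was near that over all genes. So were the pharyngeal and the liver bud and yolk sac shares in the Asb2 cKO (20% each). The part of these cells in the levels of the 10 genes was not tested. Over the alternatives the cardiomyocyte markers that rose numbered 1 to 12 in the double mutant and 0 to 6 in the Asb2 cKO. Of the calls over all genes, 2113 of 4394 in the double mutant and 1138 of 2193 in the Asb2 cKO were higher. With reads divided by each library's sum without hemoglobin genes, 1695 of 4511 and 965 of 2325 were higher. That step also drops the authors' scaling of the libraries. Hemoglobin genes held only 0.0332% to 0.782% of the signal, so the shift cannot be ascribed to them. Trib3 differed by 3.98 on the log2 scale in the double mutant (SE 0.27, limma adjusted p = 0.000135) and by 3.27 in the Asb2 cKO (SE 0.47, limma adjusted p = 0.00587). The calls of Ppp1r15a, Atf4 and Ddit3 in the Asb2 cKO were each lost when 1 library was left out. Ppp1r15a did not pass without Asb2 cKO library 3, Flna-labelled library 1 or Flna-labelled library 2 (limma adjusted p = 0.0567, 0.0639 and 0.0752), Atf4 not without Flna-labelled library 1 (0.0652) and Ddit3 not without Flna-labelled library 2 (0.0515). In the interaction, which asks whether the difference between Asb2fl/fl and Asb2fl/+ was another with the Flnafl/fl label than without it, 0 of 9 genes passed with limma, edgeR or DESeq2, against 0% of 13981 over all genes with limma. Atf3, at 0.62 (SE 0.27), and Ddit4, at -0.67 (SE 0.30), had an unadjusted p under 0.05 there, with a limma adjusted p of 0.503 for both.

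The wider pathway was followed in lists of genes chosen by known role, with earlier results of these data known. Their shares therefore describe these data and are no independent support. Over all genes 32.3% were called in the double mutant and 21.6% in the Asb2 cKO, each against the control. Of 33 further ATF4 target genes tested, 26 rose and 1 fell in the double mutant, with a median log2 fold change of 1.10, and 20 rose and 1 fell in the Asb2 cKO, with a median of 0.70. In the Flna-labelled group against the control 32 were tested, so the 33 include a gene too low or not listed there. The gene that fell in both, named after its values were seen, was Wars, a tryptophan tRNA synthetase gene (log2 fold changes -0.39 and -0.44). Stc2, a secreted glycoprotein, averaged 110.3 ± 25.9 CPM in the double mutant, 86.4 ± 26.3 CPM in Asb2 cKO libraries and 6.61 ± 0.164 CPM in the control (SD, n = 3 each). Slc1a4, a neutral amino acid transporter, averaged 71.7 ± 24.1, 55.2 ± 8.19 and 16.8 ± 0.884 CPM in these groups. Among relatives and partners of the basic leucine zipper family, 10 of 18 rose in the double mutant and 8 of 19 in the Asb2 cKO, and 0 fell. The number that rose in the Asb2 cKO was 3 to 9 over the alternatives, with 3 when any 1 control library was left out and 4 without Asb2 cKO library 2 or 3. Among these, Maff rose by 1.59 and 1.54 and Atf7 by 1.07 and 0.97 on the log2 scale in the double mutant and the Asb2 cKO.

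Of 13 known targets of CHOP and death effectors, 6 rose and 0 fell in the double mutant, and 4 rose and 2 fell in the Asb2 cKO. That is 46.2% of the list in each, against 32.3% of all genes in the double mutant and 21.6% in the Asb2 cKO. Over the alternatives 4 to 6 rose and 0 to 1 fell in the double mutant, and 3 to 4 rose and 0 to 2 fell in the Asb2 cKO. Ero1l, an ER oxidase that CHOP is known to induce, averaged 213 ± 21.4 CPM in the double mutant, 232 ± 87.1 CPM in Asb2 cKO libraries and 53.3 ± 5.04 CPM in the control (SD, n = 3 each). Bbc3, the death-promoting factor PUMA, which is also a p53 target, had 19.3 to 20.5 CPM in the double mutant, 14.6 to 27.9 CPM in Asb2 cKO libraries and 4.57 to 7.19 CPM in the control.

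Among the other 2 branches of the ER stress response, more genes fell than rose. Of 23 genes of the IRE1 and ATF6 branches, 2 rose and 9 fell in the double mutant, with a median log2 fold change of -0.20, and 1 rose and 9 fell in the Asb2 cKO, with a median of -0.26. The share called was 47.8% in the double mutant and 43.5% in the Asb2 cKO. Over all genes it was 32.3% (16.7% as lower) and 21.6% (10.9% as lower). Dnajb11, an ER co-chaperone, averaged 98.1 ± 9.25 CPM in the double mutant, 92.3 ± 9.21 CPM in Asb2 cKO libraries and 186 ± 16.0 CPM in the control (SD, n = 3 each). Creld2, a protein of the ER that unfolded protein induces, averaged 43.9 ± 4.22, 38.8 ± 6.48 and 90.2 ± 11.9 CPM in these groups. The number that fell in the Asb2 cKO was 4 to 10 over the alternatives, with 4 when control library 2 and 5 when control library 3 was left out. Hspa5, the gene of the chaperone BiP, named here after its values were seen, fell by 0.58 in the double mutant (limma adjusted p = 0.00488) and by 0.78 in the Asb2 cKO (limma adjusted p = 0.0069) on the log2 scale.

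Of 17 genes of eIF2 kinases, phosphatase and guanine exchange, 0 rose and 6 fell in the double mutant, and 1 rose and 5 fell in the Asb2 cKO. That is 35.3% of the list in each, against 32.3% of all genes in the double mutant and 21.6% in the Asb2 cKO. The 1 that rose, named after its values were seen, was Eif2ak4, the gene of the amino acid sensor GCN2 (0.53, limma adjusted p = 0.0483). In 8 of the 19 alternatives no gene of the list rose, among them leaving out any 1 control library or Asb2 cKO library 1 or 2. The number that fell in the Asb2 cKO was 1 when control library 1 or control library 2 was left out, 2 without Asb2 cKO library 2 and 3 without Asb2 cKO library 3. Dnajc3, an inhibitor of the kinase PERK, fell by 0.87 and 0.85 and Eif2b4, a subunit of the exchange factor, fell by 0.77 and 0.66 on the log2 scale in the double mutant and the Asb2 cKO. Of 12 genes of the mitochondrial stress relay, 1 rose and 4 fell in the double mutant and 1 rose and 3 fell in the Asb2 cKO, where 1 fell without control library 2. The gene that rose in both was the protease gene Lonp1 (log2 fold changes 0.81 and 0.74), and the chaperone gene Hspd1 was among those that fell (-0.81 and -0.86). Among 27 genes of mTORC1 and its regulators 3 rose and 2 fell in the double mutant, and 4 rose and 3 fell in the Asb2 cKO. The share called was 18.5% in the double mutant and 25.9% in the Asb2 cKO, against 32.3% in the double mutant and 21.6% in the Asb2 cKO over all genes. The number that rose in the Asb2 cKO was 1 to 5 over the alternatives, with 1 without control library 2 or Asb2 cKO library 2 or 3 and 2 without control library 3 or Asb2 cKO library 1. Wdr59 was among those that rose in both (0.69 and 0.70) and Sec13 among those that fell in both (-0.79 and -0.78).

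Of the 9 pathway lists, targets of HIF, the hypoxia factor, had the largest share of genes called higher. Of 20 tested, 18 rose and 1 fell in the double mutant, and in the Asb2 cKO 18 rose and 0 fell, with medians of 1.91 and 1.82. That is 95% and 90% called, against 32.3% and 21.6% over all genes. In the Flna-labelled group against the control 19 passed the 1 CPM filter. The 20 thus include a gene that passed only with a group labelled Asb2fl/fl. Ndrg1 averaged 56.5 ± 11.6 CPM in the double mutant, 67.5 ± 14.3 CPM in Asb2 cKO libraries and 3.91 ± 0.193 CPM in the control (SD, n = 3 each). Ndufa4l2, a mitochondrial protein, had 69.0 to 85.5 CPM in the double mutant, 53.2 to 80.7 CPM in Asb2 cKO libraries and 1.78 to 3.09 CPM in the control. The 1 that fell, named after its values were seen, was Pfkfb4, a gene of sugar metabolism (-0.86, limma adjusted p = 0.0273). Of 18 targets of p53, 9 rose and 2 fell in the double mutant, and 4 rose and 2 fell in the Asb2 cKO. The share called was 61.1% in the double mutant and 33.3% in the Asb2 cKO, against 32.3% and 21.6% over all genes. Over the alternatives 5 to 9 rose in the double mutant and 3 to 5 in the Asb2 cKO, where 1 to 3 fell. Btg2, a gene that restrains proliferation, rose by 1.15 in the double mutant and 0.94 in the Asb2 cKO on the log2 scale. In the Flna-labelled group against the control, limma called 1 gene of these 9 lists, Cebpa of the leucine zipper list (2.93, adjusted p = 0.0223, named after its values were seen), edgeR called 0, and DESeq2 called 1 in the leucine zipper list and 1 in the IRE1 and ATF6 list.

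**Figure D4:**
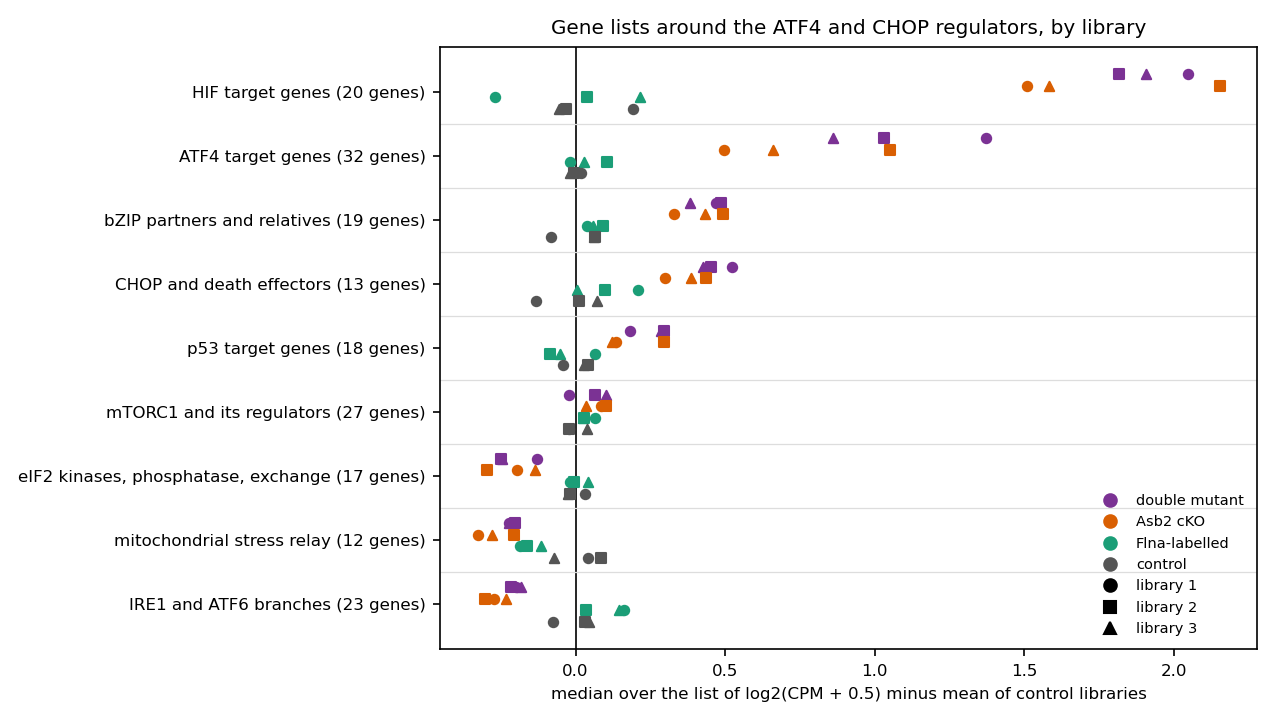
Median over each gene list of the difference of log2(CPM + 0.5) from the mean of the control libraries (horizontal axis), 1 point per library, coloured by group and shaped by library number. HIF targets lie at 1.51 to 2.15 and ATF4 targets at 0.50 to 1.37 in the double mutant and Asb2 cKO libraries, and the IRE1 and ATF6 branches at -0.30 to -0.18.

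Markers of some other cells also differed between the groups. Over all genes 32.3% were called in the double mutant and 21.6% in the Asb2 cKO. Erythroid (100% in both), endocardial and endothelial (60% and 40%) and Asb2 cKO pharyngeal markers (50%) were above this. Under it in the double mutant were cardiomyocyte and pharyngeal (20%), epicardial (14.3%), neural crest (12.5%) and liver bud and yolk sac markers (25%). Those other than pharyngeal were also under it in the Asb2 cKO (0% to 14.3%). All 12 primitive erythroid markers fell in the double mutant and in the Asb2 cKO, and their summed level was 361 to 611 CPM in the double mutant, 522 to 1225 CPM in Asb2 cKO libraries, 3116 to 4002 CPM in the Flna-labelled group and 7557 to 8207 CPM in the control, with none at 0. Endocardial and endothelial markers rose for 6 of 10 in the double mutant and for 2 of 10 in the Asb2 cKO, where 2 fell. Over the alternatives the number that rose was 2 to 6 in the double mutant, with 3 without control library 2 or double mutant library 3, and 2 in the Asb2 cKO, where 0 to 3 fell. The difference between these counts was not tested. Their summed level was 1315 to 1725 CPM in the double mutant, 1009 to 1509 CPM in Asb2 cKO libraries and 870.3 to 1051 CPM in the control. Pharyngeal markers rose for 2 of 10 in the double mutant and 5 of 10 in the Asb2 cKO (1 to 3 and 3 to 6 over the alternatives, with 3 in the Asb2 cKO without control library 1 or Asb2 cKO library 2), with summed levels of 354 to 609 CPM in the double mutant, 458 to 651 CPM in Asb2 cKO libraries and 250.1 to 338 CPM in the control. Of 15 cardiomyocyte markers 3 rose in the double mutant and 0 were called in the Asb2 cKO, and 1 of 7 epicardial markers tested rose in each. Of 8 neural crest markers tested 1 rose in the double mutant and 0 were called in the Asb2 cKO. Of markers of liver bud and yolk sac, Apoa2 and Amn fell in the double mutant, of 8 tested, and Amn in the Asb2 cKO, of 9 tested. The summed level of these markers was 25.8 to 45.7 CPM in the double mutant and 36.0 to 140 CPM in Asb2 cKO libraries. It was 130 to 485 CPM in the Flna-labelled group and 13.8 to 378 CPM in the control. Control library 2, at 13.8 CPM, was thus under every double mutant library. Alb and Hnf4a, which were too low to be tested in the double mutant against the control, were at 0 in every double mutant library, with Alb at 5.95 to 26.0 CPM in the Flna-labelled group and 0 to 0.137 CPM in the control. The part of these cells in the levels of the 10 genes was not tested. With levels rescaled without hemoglobin genes, and so without the authors' scaling, the number of the 10 genes called was unchanged in each comparison. Hemoglobin genes held at most 0.782% of the signal, so this does not test the part of red cells.

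Over the 12 libraries, the genes with the pattern most like that of Ddit3 were Vegfa, Lims2, Adm and Nrbp2, among 13981 genes compared by the root mean square difference of log2(CPM + 0.5) from the control mean. That difference was 0.20 for Vegfa and 0.28 for each of the other 3. Vegfa, the vascular growth factor gene, had 292 to 302 CPM in the double mutant, 181 to 444 CPM in Asb2 cKO libraries, 50.6 to 69.9 CPM in the Flna-labelled group and 54.6 to 69.0 CPM in the control. The genes most like Trib3, with the same ones left out, were Slc7a3, Stc2, Egln3 and Vldlr, at 0.40, 0.43, 0.61 and 0.62. Vegfa, Adm and Egln3 are also on the list of HIF targets above, and Stc2 and Vldlr on that of ATF4 targets. Slc7a3, a cationic amino acid transporter gene, had 36.5 to 60.6 CPM in the double mutant, 19.5 to 51.7 CPM in Asb2 cKO libraries, 0.708 to 2.00 CPM in the Flna-labelled group and 1.67 to 2.01 CPM in the control.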

How the data were processed

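Total RNA of hearts was sequenced as 12 libraries in 4 groups of 3, and the authors deposited 4 tables, each of 2 groups. STAR, HTSeq, edgeR and the build mm10 are named, per the submitters' processing notes, with no versions. The deposited expression values are a normalized signal, CPM, read counts scaled to library size, and whole reads were recovered from 100% of them within 0.01 of a read. The unit therefore differed from the plain CPM planned for, with no change of test. The authors also deposited a log2 fold change, a p-value and a false discovery rate (an adjusted p-value) per gene, used only where named. Depth was 25954539 to 42473118 reads per library. Tables were joined on gene ID, and the values of libraries in several tables agree within 4.43e-06 CPM. There were 12 value columns that match no label, and they were not used.

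Differences were tested with limma 3.58.1 in R 4.3.3, with trend and robust moderation, on log2(CPM + 0.5), leaving out genes whose mean over the compared libraries was under 1 CPM. Each of 6 pairs of groups was fitted alone and the interaction over all 12 libraries. P-values were adjusted by Benjamini-Hochberg over all genes tested, and a gene was called under 0.05. Intervals are 95%. The comparisons share groups and are not independent. Alternatives were DESeq2 1.42.0 and edgeR 4.0.16 (its quasi-likelihood test) run on recovered reads, other pseudocounts (0.1 and 2), filters (none and 5 CPM), scalings and limma settings, a joint fit, Xist as a covariate, a replicate block and leaving out each library. The procedure was tested on simulated data with 200 changed genes. All 12 pairs of replicate libraries differed beyond counting noise, the lowest mean chi-square per gene being 20.3, so each library was counted once.

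Genes named outside the 10 are Asb2, Flna, up to 2 genes per pathway list with the smallest adjusted p past the threshold in the Asb2 cKO against the control, and the 4 genes most like each of Ddit3 and Trib3; others are said to be chosen after their values were seen, mark a cell type, overlap one of the 10 or serve as a check of the libraries. The members and lists were chosen with earlier results of these data known. Promoter sequences are from RefSeq.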

Additional observations from a re-analysis of the deposited data

How the results depend on the processing

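Over 19 alternatives per comparison (24 for the interaction), 7 to 8 of the 10 genes were called in the Asb2 cKO and 7 to 9 in the double mutant, each against the control. Against the Flna-labelled group 8 were called in the double mutant and 5 to 7 in the Asb2 cKO. None was called in the double mutant against the Asb2 cKO or in the interaction by limma, edgeR or DESeq2. The 2 joint fits give Chac1 no value. In the Flna-labelled group against the control, DESeq2 called 1, Ddit4, and limma called 0 to 1 with a library left out. Of 1293 values of single genes, 1241 kept their direction and side of the threshold, 7 gained a call, 6 lost one and 39 changed sign, all uncalled. The cause was not tested. The replicate block changed no call of the 10 genes (7, 0, 9, 0, 8, 7 and 0 called in the 7 comparisons). Replicate numbers did not consistently pair the samples: 0 of 6 pairs of groups had every correlation of same-numbered libraries over 0.1. Single correlations ran from -0.465 to 0.426, and a batch shared by some libraries was not tested. For the double mutant against the Flna-labelled group, the block raised the calls over all genes from 4394 to 5474.

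Signs changed as follows, in log2 units. With the Xist covariate, Atf4, Atf5 and Trib3 were at -0.182, -0.383 and -0.497 in the Flna-labelled group against the control. For the double mutant against the Asb2 cKO, Atf3, Ddit3, Trib3, Ddit4 and Ppp1r15a were then at -0.0201, -0.0890, -0.00143, -0.0197 and -0.216. Eif2ak3 was then at -0.00254 in the double mutant and -0.113 in the Asb2 cKO, against the Flna-labelled group. With library weights, Atf4 was at -0.0153 in the Flna-labelled group against the control and Atf5 at -0.0131 in the Asb2 cKO against the Flna-labelled group. Weights put Eif2ak3 at -0.0404 in the double mutant against the Asb2 cKO, and at -0.103 in the double mutant and -0.0597 in the Asb2 cKO against the Flna-labelled group. Scaling without hemoglobin genes, which also drops the authors' scaling, gave -0.0165, -0.0537 and -0.0373 in these 3 comparisons.

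With 1 library left out, Atf4 ranged from -0.0549 to 0.168, Ddit3 from -0.287 to 0.134 and Eif2ak3 from -0.00546 to 0.157 in the Flna-labelled group against the control. Eif2ak3 ranged from -0.0228 to 0.173 in the double mutant against the control. Between the double mutant and the Asb2 cKO, ranges were -0.0288 to 0.831 for Ddit3, -0.148 to 0.255 for Ddit4, -0.0942 to 0.289 for Ppp1r15a and -0.111 to 0.0849 for Eif2ak3. Against the Flna-labelled group, Eif2ak3 ranged from -0.0985 to 0.0974 in the double mutant and from -0.0691 to 0.0771 in the Asb2 cKO, where Atf5 ranged from -0.235 to 0.698. The interaction ranged from -0.077 to 0.962 for Trib3, -0.109 to 0.442 for Sesn2 and -0.187 to 0.0181 for Eif2ak3.

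Counts over all genes moved by over 1.5 times in some settings. The Asb2 cKO against the control had 3033, against 1557 with the block and 1581 to 2004 without control library 1 or 2 or Asb2 cKO library 2. The double mutant against the control had 4523, against 2669 with the Xist covariate and 2875 without double mutant library 2. The Flna-labelled group against the control had 10, against 244 with DESeq2, 29 with weights, 98 without its library 3 and 0 to 3 in 9 other settings. The double mutant against the Asb2 cKO had 3, against 14 with DESeq2, 26 without Asb2 cKO library 2 and 0 in both joint fits. The double mutant against the Flna-labelled group had 4394, against 2712 to 2805 without Flna-labelled library 1 or 2 or double mutant library 2. The Asb2 cKO against the Flna-labelled group had 2193, against 1355 with limma without trend and robust moderation, 3346 in the joint fit and 609 to 1251 without Asb2 cKO library 2 or 3 or Flna-labelled library 1 or 2. The interaction had 0, against 71 with DESeq2 and 1 to 18 in 4 other settings.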
